A study of Mus musculus with 20 samples.

Results

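Cholesterol genes were compared between WT(HFD) and CD44KO(HFD) mice in liver and in white adipose tissue (WAT). The 31 genes were taken by their known place in the pathway and not by any measured value, out of 27962 gene names on the array. The choice was made with earlier results of these data known. The 31 genes comprise 18 enzymes of cholesterol synthesis, 4 regulators of the sterol response and 9 genes of sterol transport, storage and export. All 31 had a probe, 13 of them a single one, and a gene with several probes was read by the one brightest over all arrays. WT(HFD) mice were wildtype and CD44KO(HFD) mice lacked CD44, the cell surface receptor for hyaluronan, in the whole body and not in a chosen cell type. Both were male C57BL/6 mice by the labels (the study's methods give C57BL/6J as the strain the CD44-deficient line was crossed onto), 7 months old, and both had been fed a high-fat diet (HFD) with 35% fat for 21 weeks, so the HFD is shared by every group and no mice on normal chow were analysed here. RNA of either tissue was hybridised to Agilent whole-genome mouse arrays in 1 colour, with 5 arrays per genotype and tissue and 20 in all. The fat depot is not given in the labels, which also do not say whether liver and WAT of equal number came from 1 mouse.

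Cells make cholesterol from acetyl-CoA through mevalonate, isoprenoids, squalene and lanosterol. When sterols in the endoplasmic reticulum run low, SCAP escorts the transcription factor SREBP-2 (the product of Srebf2) to the Golgi, where it is cleaved and freed to switch on the enzymes of the pathway, while INSIG proteins hold it back when sterols are plentiful. Surplus cholesterol is esterified for storage or exported, in liver across the canalicular membrane into bile by the ABCG5 and ABCG8 pair, and in many cells to lipoproteins by ABCA1 and ABCG1 under the oxysterol receptors LXR.

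Levels are log2 signals minus the 75th percentile of the array, so that 0 stands for that percentile and each unit for a doubling. Levels are compared between samples and not between genes, because each probe has its own brightness. A change is the mean of CD44KO(HFD) minus the mean of WT(HFD), tested by limma across all probes with enough signal, 24689 in liver and 27654 in WAT, and called when the Benjamini-Hochberg adjusted p was under 0.05. Nothing in the labels says how the 5 samples of a group were raised or prepared, and p-values measure the spread between these samples.

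Arrays of WAT were brighter than those of liver, with a 75th percentile signal of 1541 to 2792 against 432.7 to 574.6. WT(HFD) WAT replicate 1 stood apart, with 89.5% of its spots well above background against 63.2% to 69.5% on the other WAT arrays, and with correlations of at most 0.841 to them where they reached at least 0.960 among themselves. The values of the cholesterol genes in WAT are therefore also given without it, while marker and partner calls in WAT include it. The deleted gene went with the labels. The brightest probe of Cd44 did not overlap between genotypes, with log2 changes of -4.21 in liver and -4.57 in WAT. A second probe did not overlap either, with a change of -4.28 in WAT, and was not well above background in any CD44KO(HFD) liver sample, while the remaining probe was dim in both tissues. The tissues matched their names. The summed level of 10 hepatocyte markers (log2) was 11.26 to 11.89 in liver against 1.26 to 5.63 in WAT, and that of 10 adipocyte markers was 9.07 to 10.40 in WAT against 4.04 to 6.91 in liver.

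In CD44KO(HFD) liver 3 genes of sterol export rose and no enzyme of synthesis passed the test. Abcg5 and Abcg8, which together form the canalicular sterol exporter, rose 1.99-fold and 2.10-fold. Scap, the escort of SREBP-2, rose 1.49-fold, Lcat, the plasma enzyme that esterifies cholesterol on HDL, rose 1.45-fold, and Abca1, which loads cholesterol onto apolipoprotein A-I, rose 1.29-fold. Of the 31 members 5 were called higher, against 7.85% of all probes tested in that direction, and 0 were called lower, against 5.75% of all probes. At an unadjusted p under 0.05, 5 members were higher and 4 lower, against 20.4% and 11.8% of all probes. The plot of genotype effects shows each member with its interval.

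**Figure D1:**
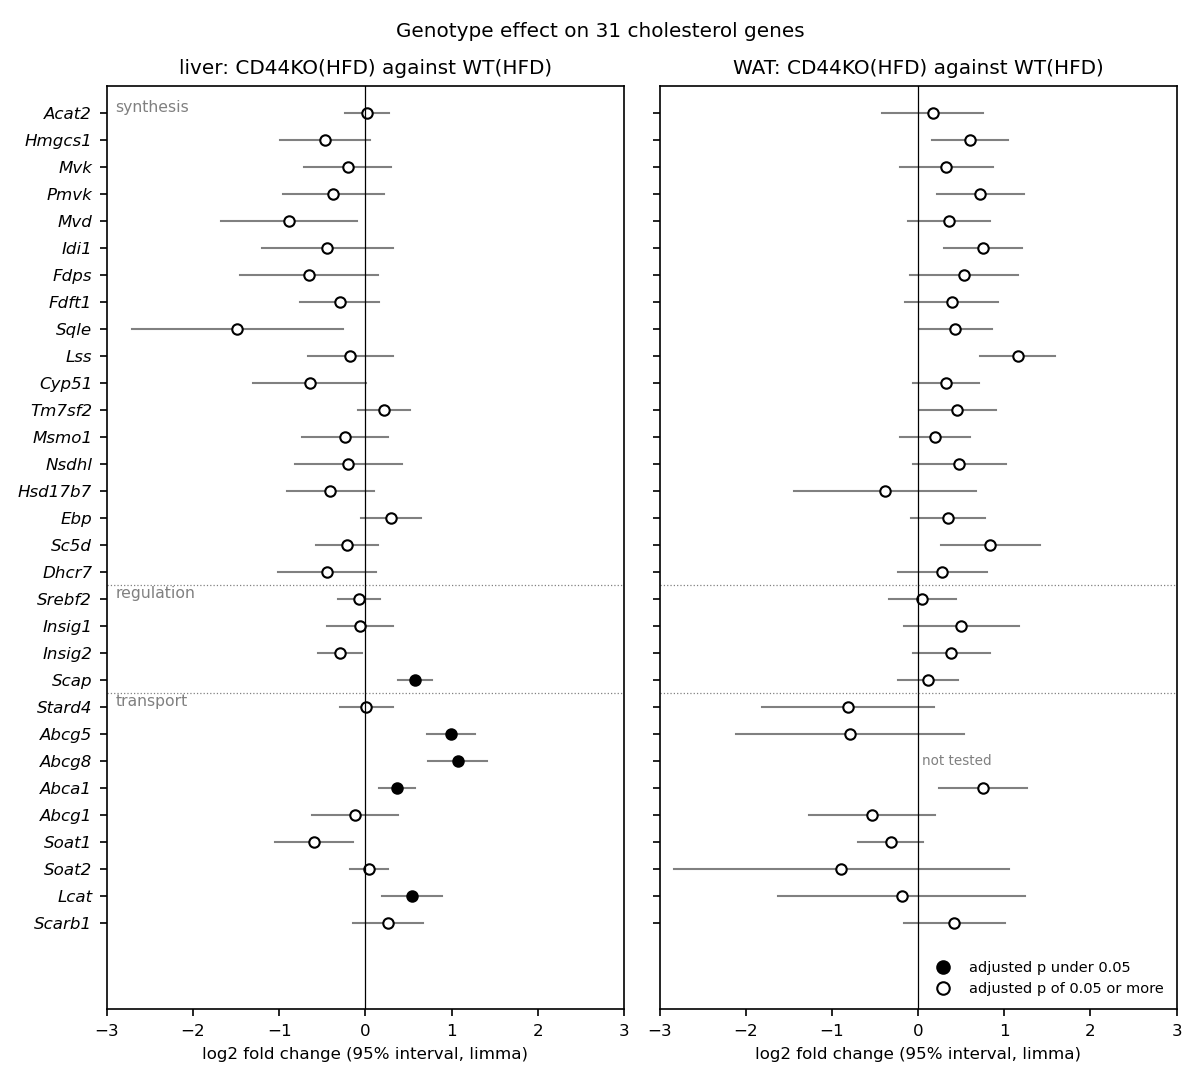
Log2 fold change of CD44KO(HFD) against WT(HFD) for the 31 genes in liver (left) and WAT (right), with the 95% interval from limma, n = 5 arrays per genotype. Filled circles passed an adjusted p of 0.05, which 5 members did in liver and 0 did in WAT, and Abcg8 was not tested in WAT.

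Abcg5 (NM_031884, probe at chr17:82952711-82952770, build mm7 as in the files) read 4.78, 5.06, 4.98, 5.09 and 5.30 in WT(HFD) liver and 6.05, 6.11, 5.67, 6.23 and 6.12 in CD44KO(HFD) liver. The lowest CD44KO(HFD) sample stood above the highest WT(HFD) sample. The change was 0.99 ± 0.12 (log2, SE, n = 5 per genotype), a 1.99-fold rise with a 95% interval of 1.65 to 2.41, and limma's adjusted p was 0.0045. It was 1.09, 0.86 and 1.07 within the 3 slides that held liver arrays.

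Abcg8 (NM_026180, brightest probe at chr17:82994253-82994312) read -0.62, -0.29, -0.26, -0.32 and -0.11 in WT(HFD) liver and 0.43, 0.94, 0.39, 1.03 and 0.96 in CD44KO(HFD) liver. Again the genotypes did not overlap, and all 10 liver samples were well above background. The change was 1.07 ± 0.15 (log2, SE), a 2.10-fold rise with a 95% interval of 1.66 to 2.66, and the adjusted p by limma was 0.0082. A second probe of the gene, at chr17:82989909-82989968, changed by 0.93 ± 0.11 (log2, SE) and was called as well. Within the 3 slides the brightest probe changed by 1.29, 1.04 and 0.68. Their deviations from the genotype means correlated with r = 0.83 over the 10 liver arrays.

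The start site of Abcg5 and a start site of Abcg8, which has a further one in the table, lie 110 bases apart on opposite strands of chromosome 17 in RefSeq's annotation of build GRCm38.p6, a later build than that of the probe positions. The stretch between the starts is shown because both genes read away from it and moved together in liver. It covers chr17:84683012-84683120, is written on the strand of Abcg8, and has in capitals the core that GATA factors bind, AGATAA, which reads TTATCT on this strand.

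Abcg5 to Abcg8: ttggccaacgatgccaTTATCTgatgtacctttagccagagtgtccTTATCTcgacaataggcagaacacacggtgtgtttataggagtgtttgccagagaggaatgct

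The core occurs in it at 2 places. This motif was searched after the stretch had been read, and 11.2% of the 32851 promoter windows in the table hold it on either strand. A match is a description of the letters and not of a bound site.

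Abca1 (NM_013454, probe at chr4:53044891-53044950) read 2.58, 2.40, 2.63, 2.53 and 2.57 in WT(HFD) liver and 2.83, 2.97, 2.74, 3.17 and 2.83 in CD44KO(HFD) liver. The genotypes did not overlap, though the lowest CD44KO(HFD) sample lay close to the highest WT(HFD) sample. The rise of 0.37 ± 0.09 (log2, SE) had an adjusted p of 0.031 by limma. With single arrays left out it lay between 0.019 and 0.078, and the call held in 3 of 10 such fits, those without WT(HFD) replicate 3, without WT(HFD) replicate 4 and without CD44KO(HFD) replicate 3. Within slides it was 0.61, 0.21 and 0.20.

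Lcat (NM_008490, probe at chr8:104538812-104538871) read 3.55, 3.83, 3.73, 4.19 and 4.0 in WT(HFD) liver and 4.36, 4.58, 4.04, 4.76 and 4.26 in CD44KO(HFD) liver. The lowest CD44KO(HFD) sample lay below the highest WT(HFD) sample, and all 5 lay above the WT(HFD) mean. Its rise of 0.54 ± 0.16 (log2, SE) had an adjusted p of 0.047 by limma, between 0.022 and 0.099 with single arrays left out. The call held in 2 of 10 such fits, those without WT(HFD) replicate 4 and without CD44KO(HFD) replicate 3, and the rise was 0.66, 0.37 and 0.63 within slides.

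**Figure D2:**
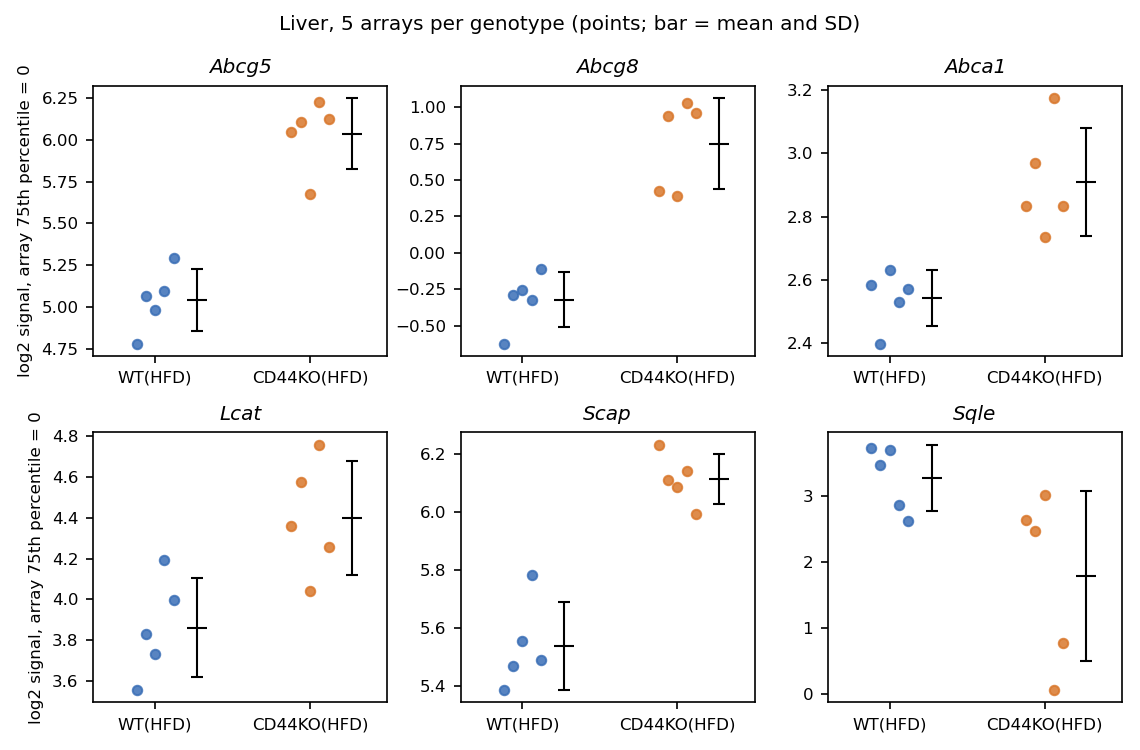
Level of the 5 genes called higher in CD44KO(HFD) liver and of Sqle, as log2 signal with the 75th percentile of the array at 0. Points are the 5 arrays of each genotype and bars the mean and SD, each panel with its own range on the axis. Abcg5, Abcg8, Abca1 and Scap do not overlap between genotypes, and 2 CD44KO(HFD) samples of Sqle lie far below the other 3.

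Among the other transport members, none was called in liver. Soat1, the enzyme that esterifies cholesterol in macrophages and many other cells, read -0.06, -0.36, -0.92, -0.85 and -0.62 in WT(HFD) liver and -1.23, -1.52, -0.82, -1.44 and -0.79 in CD44KO(HFD) liver. All 5 CD44KO(HFD) samples were below the WT(HFD) mean and the groups overlapped, and the difference of -0.60 ± 0.20 (log2, SE) had an adjusted p of 0.074 by limma. With the slide as a block, or with array weights, Soat1 was called lower. Of its other 2 probes tested in liver, 1 differed by -0.45 and the other by 0.15, the latter placed on chromosome 7 by the files and not with the rest on chromosome 1. Soat2, the esterifying enzyme of hepatocytes and enterocytes, differed by 0.04, with a 95% interval of -0.18 to 0.26. Stard4, a carrier of cholesterol between membranes, differed by 0.01 with an interval of -0.30 to 0.32 by its brightest probe, while its dimmest probe was called higher by 0.56 (adjusted p of 0.041 by limma), so its size and its call depend on the probe. Abcg1, the exporter to mature HDL, differed by -0.12, with an interval of -0.62 to 0.38. Scarb1, the HDL receptor that takes up cholesteryl esters, differed by 0.26, with an interval of -0.14 to 0.67. Of the 9 transport members 3 did not overlap between genotypes with CD44KO(HFD) higher, and 0 with it lower, against 7.5% and 4.22% of all probes tested.

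Cell type markers also moved in liver, where 7.85% of all probes tested were called higher and 5.75% lower. Of the macrophage list 4 of 11 markers tested fell (Itgax, Trem2, Gpnmb and Lgals3), although the summed level of its 12 genes ranged from 5.71 to 6.89 in WT(HFD) and from 5.42 to 6.94 in CD44KO(HFD) samples. Of 6 Kupffer cell markers Timd4 and Marco rose, with summed levels of 4.96 to 6.47 against 6.23 to 7.63, and of 6 T cell markers 4 fell, with 1.21 to 1.96 against 0.88 to 1.38. Of 6 stellate cell and fibroblast markers 5 fell, with 6.66 to 7.28 against 6.00 to 6.62, which do not overlap. Of the 10 adipocyte markers, 6 of which were tested in liver, Cidec fell, with summed levels of 6.54 to 6.91 against 4.04 to 6.36. Cidec alone read 5.84 to 6.42 in WT(HFD) and 1.78 to 5.86 in CD44KO(HFD) liver, so this sum largely follows it. The paper lists Cidec among lipid accumulation genes in liver, and the sum is not read here as adipocyte content. All 10 hepatocyte markers had positive changes and 2 rose, Serpina1e and Tdo2, with summed levels of 11.26 to 11.76 against 11.62 to 11.89. No hepatocyte, macrophage, Kupffer cell, T cell or stellate cell marker was below background on every liver array. Whether these markers have a part in the changes of the 31 genes was not tested, and in whole tissue fewer cells of a type and less RNA per cell cannot be told apart.

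The regulators did not move together in liver. Scap (NM_001001144, probe at chr9:110082822-110082881) read 5.39, 5.47, 5.56, 5.78 and 5.49 in WT(HFD) liver and 6.23, 6.11, 6.09, 6.14 and 5.99 in CD44KO(HFD) liver. Every CD44KO(HFD) sample was above every WT(HFD) sample. The rise of 0.58 ± 0.09 (log2, SE) had an adjusted p of 0.0095 by limma and stayed called in each of the 10 fits with 1 array left out, as did those of Abcg5 and Abcg8, and it was 0.50, 0.60 and 0.68 within slides. Insig2, which retains SCAP in the endoplasmic reticulum, read 5.89, 5.72, 5.82, 5.44 and 5.72 in WT(HFD) and 5.12, 5.61, 5.44, 5.34 and 5.6 in CD44KO(HFD) liver, a difference of -0.30 ± 0.12 (log2, SE) that was not called (adjusted p of 0.11 by limma). Srebf2 itself differed by -0.07, with a 95% interval of -0.31 to 0.17. Insig1, the INSIG gene that SREBP-2 itself switches on, differed by -0.06, with an interval of -0.44 to 0.32.

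No enzyme of cholesterol synthesis was called in liver, but 15 of the 18 had a negative difference, against 38.7% of all probes tested. Their median was -0.34, where that over all probes was 0.08 (log2). The largest differences were those of Sqle, the squalene monooxygenase that controls the flow beyond squalene, at -1.49 ± 0.55 (log2, SE; adjusted p of 0.095 by limma), and of Mvd, the mevalonate diphosphate decarboxylase, at -0.88 ± 0.35 (adjusted p of 0.12 by limma). Fdps, Cyp51, Hmgcs1, Dhcr7, Idi1 and Hsd17b7 lay between -0.65 and -0.41, and Acat2, Tm7sf2 and Ebp, at 0.02, 0.21 and 0.30, were the only synthesis genes with a positive difference. The other 7, Mvk, Pmvk, Fdft1, Lss, Msmo1, Nsdhl and Sc5d, lay between -0.37 and -0.17. The 17 further probes of synthesis genes that were tested in liver all had a negative difference. The 95% interval was below 0 for Sqle and Mvd only, at -2.71 to -0.26 and -1.67 to -0.10.

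Sqle (NM_009270, probe at chr15:59397289-59397348) read 3.73, 3.47, 3.70, 2.87 and 2.63 in WT(HFD) liver and 2.65, 2.47, 3.02, 0.06 and 0.78 in CD44KO(HFD) liver. CD44KO(HFD) replicates 4 and 5 were far below the other 3, which overlapped with WT(HFD). The two-sided exact permutation p for this single gene was 0.040, where 0.0079 is the smallest that 5 samples against 5 can give. The difference ranged from -1.79 to -1.05 with single arrays left out and passed the threshold in 1 of 10 such fits, that without CD44KO(HFD) replicate 3 (adjusted p of 0.046 by limma).

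These same 2 arrays were low across the pathway. On CD44KO(HFD) replicates 4 and 5 the median of the 18 synthesis genes was -1.0 and -0.79 relative to the WT(HFD) mean (log2), with 16 and 17 genes below it. On CD44KO(HFD) replicates 1, 2 and 3 that median was 0.13, -0.05 and 0.05, within the range of -0.24 to 0.25 seen on the WT(HFD) arrays. Replicate 4 was the lowest of the 10 arrays for 12 of the 18 genes. Without replicate 4 the median difference over the 18 genes was -0.15, and without replicate 5 it was -0.23. Within the 3 slides the median was -0.57, -0.19 and -0.07, the first 2 holding replicates 4 and 5. Replicate 4 was also the highest of the 10 arrays for Abcg5, Abcg8, Abca1 and Lcat.

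**Figure D3:**
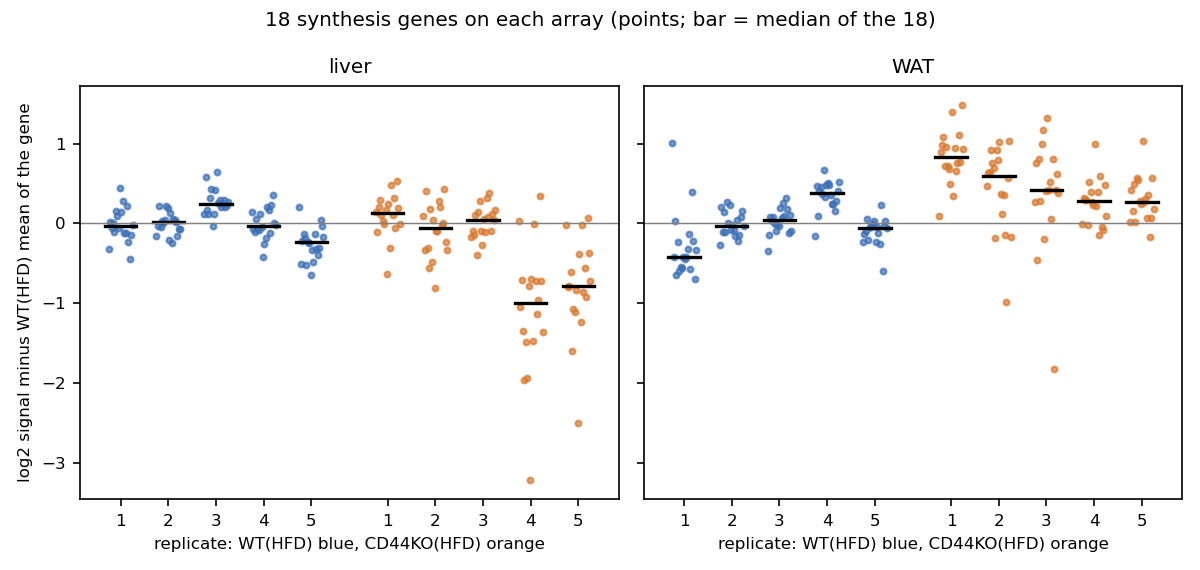
The 18 synthesis genes on each array, as log2 signal minus the WT(HFD) mean of the same gene in liver (left) and WAT (right). Points are genes and bars their median on that array. CD44KO(HFD) liver replicates 4 and 5 lie at medians of -1.0 and -0.79, and all 5 CD44KO(HFD) WAT arrays lie between 0.27 and 0.83. The WT(HFD) WAT arrays lie between -0.42 and 0.38, so the medians of the genotypes overlap in WAT.

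Within genotypes the synthesis genes varied together. Over the deviations of the 10 liver arrays from their genotype means, the median correlation among the 153 pairs of synthesis genes was 0.80, and 141 pairs were positive. The median between synthesis genes and all probes tested was 0.00. Sqle and Cyp51, the lanosterol demethylase, had r = 0.98, and Srebf2 had a median r of 0.78 with the synthesis genes against 0.50 for Insig1 and 0.20 for Scap. Abcg5 and Abcg8 stood at -0.50 and -0.63. Acat2 and Ebp, at -0.01 and 0.18, did not vary with the rest. These correlations share arrays and the scaling of each array and carry no test.

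Promoters of 24 of the 31 genes were matched in RefSeq's table for build GRCm38.p6, each window running from 250 bases before to 50 after a start site. Those of Hmgcs1, which condenses acetoacetyl-CoA to HMG-CoA, Cyp51 and Lss are shown up to the start site, since these 3 stand for the early and late steps of a pathway whose members moved together. Capitals mark the sterol element core CACCCCAC, the NF-Y box CCAAT and the GC box GGGCGG, each searched on both strands, so that ATTGG and CCGCCC are the same boxes read from the other strand. Hmgcs1 is at chr13:119690101-119690350 on the plus strand, Cyp51 at chr5:4104698-4104947 on the minus strand and Lss at chr10:76531355-76531604 on the plus strand, each written in the sense of its gene.

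Hmgcs1: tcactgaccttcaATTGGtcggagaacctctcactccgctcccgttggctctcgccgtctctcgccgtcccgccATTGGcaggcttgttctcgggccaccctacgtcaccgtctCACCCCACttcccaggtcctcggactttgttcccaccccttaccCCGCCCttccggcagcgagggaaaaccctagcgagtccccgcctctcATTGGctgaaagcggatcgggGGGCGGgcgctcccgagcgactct

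Cyp51: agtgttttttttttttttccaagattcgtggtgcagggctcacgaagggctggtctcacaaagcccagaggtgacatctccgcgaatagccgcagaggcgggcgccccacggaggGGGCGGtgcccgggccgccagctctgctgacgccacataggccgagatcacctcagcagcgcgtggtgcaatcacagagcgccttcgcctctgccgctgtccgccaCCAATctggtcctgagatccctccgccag

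Lss: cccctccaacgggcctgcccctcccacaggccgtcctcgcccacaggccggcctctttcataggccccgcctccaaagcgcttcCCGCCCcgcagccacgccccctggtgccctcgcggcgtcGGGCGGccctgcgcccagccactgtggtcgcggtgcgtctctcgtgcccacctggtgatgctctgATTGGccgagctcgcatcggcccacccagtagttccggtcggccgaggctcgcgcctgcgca

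The CCAAT box was in the promoter of 14 of the 15 synthesis genes matched, Acat2 being the exception, where 41.1% of the 27025 genes in the table and 37.4% of its windows hold it. The GC box was in 14 of 15, Pmvk being the exception, against 38.2% of genes and 35.7% of windows. The exact sterol core was in Hmgcs1 and Acat2 alone, against 3.30% of genes and 2.87% of windows, and its looser form CACNCCAC, which includes the exact core, added Insig1, against 7.12% of genes and 6.24% of windows. Of the 5 transport genes matched, 4 had a CCAAT box and 2 a GC box. These are matches of letters in a fixed window and say nothing of binding.

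In WAT the same enzymes leaned the other way. Of the 18 synthesis genes 17 had a positive difference, against 44.7% of all probes tested, with a median of 0.41 where that over all probes was -0.06 (log2). No member was called in WAT, in a tissue where only 0.0108% of all probes were called higher and 0.0289% lower, 11 in all. At an unadjusted p under 0.05, 8 members were higher and 0 lower, against 8.27% and 6.6% of all probes. Of the 17 further probes of synthesis genes 13 had a positive difference. Without WT(HFD) replicate 1, 17 of 18 still had a positive difference. The median was then 0.33 against 0.04 over all probes, 54.7% of which were positive. Again no member was called, against 0.136% of all probes at the adjusted threshold. Of the synthesis genes 6 passed an unadjusted p of 0.05. The share of all probes at that unadjusted p was not computed without this array. This array was the lowest of the 10 for 14 of the 18 genes. The median was 0.29 and 0.48 within the 2 slides that held both genotypes, the other WAT slide holding CD44KO(HFD) arrays only.

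Lss, the lanosterol synthase that closes the sterol ring (AK147680, brightest probe at chr10:76212419-76212478), read -0.04, 0.39, 0.60, 0.91 and 0.18 in WT(HFD) WAT and 1.81, 1.43, 1.72, 1.41 and 1.45 in CD44KO(HFD) WAT. The genotypes did not overlap. The difference was 1.15 ± 0.20 (log2, SE), or 2.23-fold with a 95% interval of 1.64 to 3.01, and its adjusted p was 0.12 by limma. Without WT(HFD) replicate 1 it was 1.04 ± 0.18, with an adjusted p of 0.073 by limma. In liver the same probe read 0.76, 0.4, 1.25, 0.35 and 0.28 in WT(HFD) and 0.85, 0.52, 0.66, -0.09 and 0.22 in CD44KO(HFD) samples. These overlapped, with a difference of -0.17 ± 0.22 (log2, SE).

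Lss was the 1 member of 31 whose genotype effect differed between the tissues, against 1.15% of all probes in either direction. The effect in WAT exceeded that in liver by 1.33 ± 0.30 (log2, SE), with an adjusted p of 0.045 for the interaction term in limma. Here and in the other contrasts between tissues, slide and scanner cancel only as far as their effect is the same in both genotypes. Without WT(HFD) WAT replicate 1 the excess was 1.22, with an adjusted p of 0.052, and the call held in 4 of the 20 fits with 1 array left out, those without WT(HFD) liver replicate 4, CD44KO(HFD) liver replicate 3, WT(HFD) WAT replicate 4 or CD44KO(HFD) WAT replicate 4. The other probes of the gene did not show it. They lie at chr10:76206315-76206374 and chr10:76208898-76208957 and differed in WAT by 0.18 ± 0.26 and 0.32 ± 0.26 (log2, SE), with adjusted p of 0.64 and 0.42 for the interaction by limma. The call for Lss therefore rests on 1 of 3 probes. That probe was chosen as the brightest over all arrays, CD44KO(HFD) WAT included, and its high values there entered the choice. In WT(HFD) liver it was the dimmest of the 3, with a mean of 0.61 against 1.31 and 1.71. The choice of probe was thus not independent of the effect tested.

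**Figure D4:**
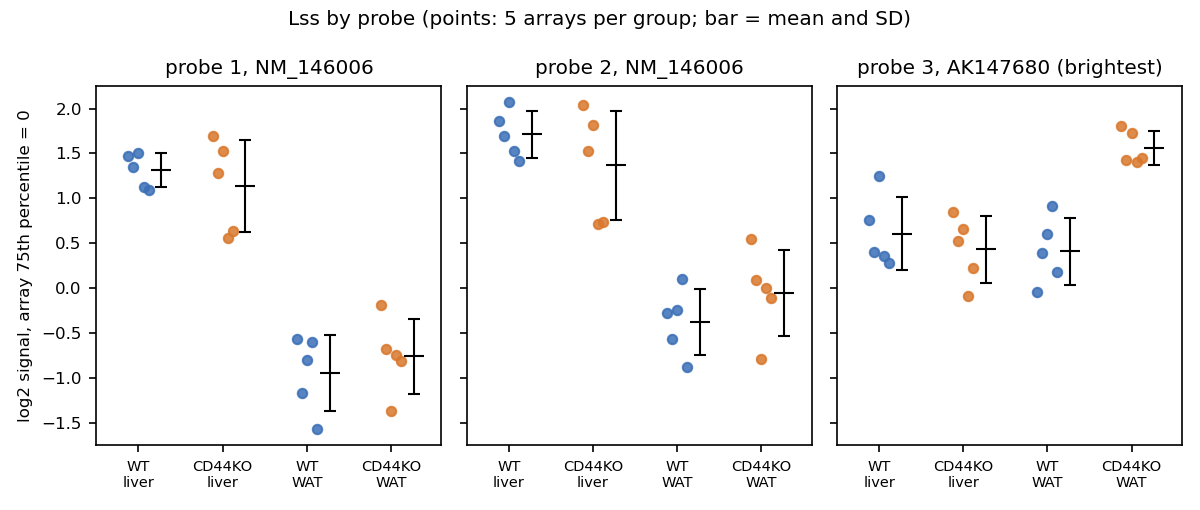
Level of Lss by its 3 probes in the 4 groups, as log2 signal with the 75th percentile of the array at 0. Points are the 5 arrays of a group and bars the mean and SD. Probes 1 and 2 are lower in WAT than in liver and overlap between genotypes, while probe 3 is higher in all CD44KO(HFD) than in all WT(HFD) WAT samples.

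Other synthesis genes stood without overlap in WAT as well. Idi1, the isomerase that makes the first reactive isoprenoid, read 1.07, 1.94, 1.66, 2.03 and 1.62 in WT(HFD) and 2.62, 2.36, 2.66, 2.18 and 2.24 in CD44KO(HFD) WAT, a difference of 0.75 ± 0.20 (log2, SE). Sc5d, a desaturase of the last steps, read 2.47, 3.32, 3.27, 3.57 and 3.20 against 4.66, 4.20, 3.78, 3.65 and 3.73, a difference of 0.84 ± 0.26 (log2, SE). Neither was called, with adjusted p of 0.19 and 0.21 by limma, and without WT(HFD) replicate 1 the differences were 0.60 and 0.66. In both cases every CD44KO(HFD) sample was above every WT(HFD) sample by the brightest probe. A dimmer probe of Idi1 differed by 0.29 ± 0.35 (log2, SE), with overlap between genotypes. Separation by the brightest probe held for 4 members with CD44KO(HFD) higher, Idi1, Lss, Sc5d and Abca1. It held for 0 with CD44KO(HFD) lower, and the shares of all probes were 4.1% and 2.07%. Without WT(HFD) replicate 1 Acat2 joined them, at 0.42, and the share of all probes separated without that array was not computed. Pmvk, Hmgcs1, Fdps and Nsdhl followed with differences of 0.72, 0.61, 0.53 and 0.48, with overlap between genotypes, and 10 more genes lay between 0.17 and 0.45. Without WT(HFD) replicate 1 these 4 differed by 0.56, 0.50, 0.40 and 0.33, and the 10 by 0.16 to 0.42. With all arrays, a dimmer probe of Hmgcs1, Fdps and Nsdhl differed by -0.76, -0.21 and -0.28, so their direction depends on the probe. Further probes of Pmvk, Hmgcs1 and Nsdhl had positive differences. Hsd17b7, the ketoreductase of C-4 demethylation, was the 1 synthesis gene with a negative difference, at -0.38 with a 95% interval of -1.44 to 0.67, or -0.28 without WT(HFD) replicate 1, while its other probe differed by 0.81 without overlap, so its direction depends on the probe.

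The difference between tissues in the genotype effect was positive for all 18 synthesis genes, against 39.8% of all probes, with a median of 0.85 where that over all probes was -0.13 (log2). It reached 1.92 ± 0.62 for Sqle, 1.24 ± 0.43 for Mvd and 1.19 ± 0.41 for Idi1 (log2, SE), none of them called. At an unadjusted p under 0.05, 9 of the 18 passed. The share of all probes at that p was not computed, so this count cannot be set against it. The second probe of Sc5d was called, with an effect 1.29 larger in WAT (adjusted p of 0.042 by limma), and its brightest was not, at 1.05 (adjusted p of 0.10 by limma). CD44KO(HFD) liver replicates 4 and 5, low for these genes, enter this contrast.

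Insig1 had the largest difference among the regulators in WAT. It read 0.68, 1.15, 1.23, 1.59 and 0.87 in WT(HFD) and 2.28, 1.96, 0.66, 1.55 and 1.58 in CD44KO(HFD) WAT. Replicate 3 of CD44KO(HFD) was the lowest of all 10 and the groups overlapped. The difference of 0.50 ± 0.30 (log2, SE) was not called, and it was 0.40 without WT(HFD) replicate 1. Insig2, Scap and Srebf2 differed by 0.38, 0.12 and 0.05. Without that array these were 0.30, 0.06 and -0.02, so that the sign of Srebf2 turned. The rise of Scap seen in liver was 0.46 larger than its difference in WAT, and that contrast was not called (adjusted p of 0.19 for the interaction by limma).

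The exporters Abca1, Abcg1 and Abcg5 were well above background in every WAT sample. Abcg8 was well above background in 1 of 5 samples of each genotype and was not tested. Abcg5 read -1.07, -2.23, -3.07, -3.22 and -2.59 in WT(HFD) and -4.39, -4.62, -2.04, -2.74 and -2.35 in CD44KO(HFD) WAT, with wide overlap. Its difference was -0.79 ± 0.60 (log2, SE), or -0.45 without WT(HFD) replicate 1. Soat2 read -2.05, -7.31, -7.25, -6.11 and -5.71 against -6.23, -6.75, -7.16, -6.32 and -6.42. It was well above background in 3 and 2 samples, and WT(HFD) replicate 1 alone was high. The difference was -0.89 ± 0.87 (log2, SE), and without that array the probe no longer had enough signal to be tested.

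Abca1 read 2.14, 3.11, 2.85, 2.91 and 3.07 in WT(HFD) and 3.27, 3.63, 4.10, 3.46 and 3.37 in CD44KO(HFD) WAT, with no overlap. The difference of 0.75 ± 0.23 (log2, SE) had an adjusted p of 0.21 by limma, and without WT(HFD) replicate 1, the lowest sample, it was 0.58 ± 0.18. It had the same sign as in liver, and the effects in the 2 tissues differed by 0.38 with a 95% interval of -0.14 to 0.90. Scarb1 differed by 0.42 in WAT, or 0.28 without that array, and by 0.26 in liver. Abcg1, Soat1, Stard4 and Lcat differed in WAT by -0.53, -0.32, -0.81 and -0.19, none of them called. Without WT(HFD) replicate 1 these were -0.55, -0.31, -0.89 and 0.39, so that the sign of Lcat turned.

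No cell type marker was called in WAT. All 10 adipocyte markers had positive differences, with summed levels of 9.07 to 9.85 in WT(HFD), 9.62 to 9.85 without replicate 1, and 9.61 to 10.40 in CD44KO(HFD). Of 10 hepatocyte markers 9 had positive differences, with 1.26 to 5.28 against 3.06 to 5.63. All 6 mesothelial markers had negative differences, with 1.21 to 3.51 against 0.05 to 1.80. Of 12 macrophage markers 11 were negative, with 8.78 to 9.37 against 8.81 to 9.17, and of 6 T cell markers 5 were negative, with 0.71 to 2.83 against 0.37 to 0.76. Of 6 Kupffer cell markers 5 were negative, with 5.50 to 6.00 against 3.84 to 5.39, and of 6 fibroblast markers 1 was, with 8.38 to 9.14 against 8.76 to 9.07. WT(HFD) replicate 1 stood at 0.92 for the summed epididymis markers and at 0.52 for those of exocrine pancreas. The other WT(HFD) arrays reached at most -2.07 and -2.55, and the CD44KO(HFD) arrays at most -1.04 and -1.71. Abcg8 and Soat2, lower on every other WAT array, also read high on this one, at -1.83 and -2.05. High values of dim probes on it were thus not limited to these markers. The part of the cell type markers in the values of the synthesis genes in WAT was not tested.

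The wider sterol pathway was read through 24 further genes chosen by their role. In liver 2 of the 23 tested rose and 2 fell, against 7.85% and 5.75% of all probes, shares close to these. Srebf1, whose product drives fatty acid synthesis, rose from 6.97 ± 0.29 to 7.51 ± 0.24 (log2, SD, n = 5), with an adjusted p of 0.045 by limma. Vldlr, a receptor for triglyceride-rich lipoproteins, rose from 0.27 ± 0.27 to 0.94 ± 0.39, with an adjusted p of 0.048 by limma. Lipa, the lysosomal acid lipase that frees cholesterol from esters, fell from 3.67 ± 0.07 to 3.18 ± 0.12, with an adjusted p of 0.010 by limma. Tmem97, a sterol-responsive membrane protein, fell from 3.42 ± 0.13 to 2.86 ± 0.20, with an adjusted p of 0.017 by limma. Tmem97 was also the 1 partner whose effect differed between tissues, by 0.83, with a difference in WAT of 0.28 and an adjusted p of 0.050 for the interaction by limma, just under the threshold. In WAT none of the 23 partners tested was called.

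Between tissues the cholesterol genes differed far more than between genotypes. In WT(HFD) mice 17 of the 18 synthesis genes and all 4 regulators were higher in every liver sample than in every WAT sample, by a median of 2.62 and 1.57 (log2), and Lss alone among the synthesis genes overlapped, by its AK147680 probe and not by its other 2. Of the transport genes 6 were higher in liver, with Lcat and Abcg5 differing by 8.58 and 7.48. Their WAT means were -4.72 and -2.44, or -5.30 and -2.78 without WT(HFD) WAT replicate 1. Soat2 and Abcg8 were not well above background in all WAT samples, so the size of their difference is not given. Abcg1 and Soat1 were higher in WAT, by 4.37 and 4.29, and Abca1 overlapped. Without WT(HFD) WAT replicate 1 the other 4 WAT samples of Abca1, between 2.85 and 3.11, lay above all liver samples, between 2.40 and 2.63, while the AK147680 probe of Lss still overlapped. Liver and WAT were on separate slides and scanners, so tissue, slide and scanner cannot be told apart. The share and median over all probes were not computed for liver against WAT. Whether the higher levels in liver are particular to these genes was therefore not tested. The 75th percentile signal was 432.7 to 574.6 in liver and 1541 to 2792 in WAT, so centring on it raises liver relative to WAT. The differences are of centred levels, and raw signal was not compared.

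**Figure D5:**
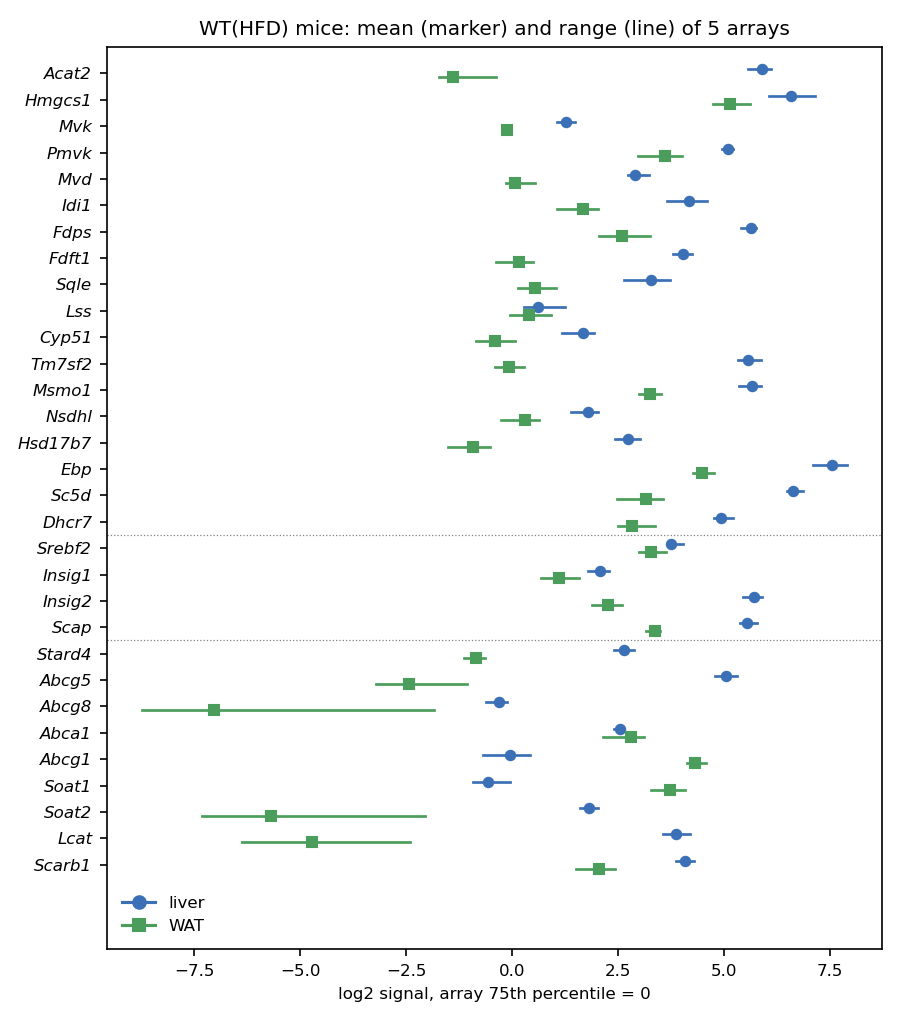
Level of the 31 genes in WT(HFD) liver (circles) and WAT (squares), as log2 signal with the 75th percentile of the array at 0. Markers are means and lines the range of 5 arrays. Most genes lie higher in liver, while Abcg1 and Soat1 lie higher in WAT by 4.37 and 4.29.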

How the data were processed

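Total RNA of whole liver and WAT from 5 WT(HFD) and 5 CD44KO(HFD) samples per tissue was labelled with Cy3 and hybridised to 20 arrays of 45018 spots, per the labels. The authors deposited scanner output of Agilent Feature Extraction 9.5.3.1 with signal intensity per spot, detrended and without background subtraction per the file headers. The deposited series table holds the same intensity values, and its match to the scanner files was 100%. No normalization or test is given for the arrays in the sources used here.

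Control spots and outlier flags were left out, spots of a probe were averaged, and log2 intensity was centred on the 75th percentile of each array, giving 41174 probes. Tests took probes whose signal was well above background in 3 or more of the 5 samples of either genotype. Within a tissue, genotypes were set against each other by limma 3.58.1 in R 4.3.3 (lmFit and eBayes), tissues by an interaction term over 20 arrays, with Benjamini-Hochberg adjustment over all probes and a threshold of 0.05. Exact two-sided permutation tests served single genes. The code was tested on simulated data. The number of arrays limits the precision, and intervals cover 95%.

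The 31 genes, the 24 partners and the marker lists were chosen with earlier results of these data known. All members were counted by their brightest probe. Values in every sample were given for members called in a tissue or in the interaction and for the member of each role with the largest difference in each tissue. Those of Soat1 and Insig2 in liver and of Idi1, Sc5d, Abca1 and Abcg5 in WAT were added after their values were seen. Partners were named where called. Alternatives were another background correction and normalization, other filters and probe choices, slide, replicate and array-weight fits, and leaving out each array. Probe positions are those of the files (build mm7), and the part of the gene they lie in was not analysed here. Promoters came from RefSeq (GRCm38.p6).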

Additional observations from a re-analysis of the deposited data

Results flagged for a closer look

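Among 124 groups of 5 samples, 5 held a sample far from the other 4, where chance gives about 1 group in 20. WT(HFD) WAT replicate 1 accounted for 3 of them. It was the highest of its group for Acat2, at -0.38, and for Abcg8, at -1.83, and the lowest for Abca1, at 2.14. For Abcg8 1 of 5 WAT samples of each genotype was well above background. CD44KO(HFD) WAT replicate 1 was the highest of its group for Abcg8, at -5.75, and WT(HFD) liver replicate 3 was the highest for Srebf2, at 4.02. The effect of genotype on Lss was 1.33 larger in WAT than in liver (log2) by its brightest probe, whose high CD44KO(HFD) WAT values entered its choice.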

How the results depend on the processing

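The synthesis genes kept a negative median in liver, between -0.57 and -0.07, and a positive one in WAT, between 0.22 and 0.50, under every alternative run. Of 5 members called in liver, 2 passed with normexp background correction (Abcg5 and Abcg8), 3 without a filter on dim probes, and 1 (Scap) in the fit of all 20 arrays, where WAT arrays raise the spread and Abcg5 and Abcg8 had adjusted p of 0.29 and 0.70 by limma. With single arrays left out the count ranged from 3 to 8, the 8 without CD44KO(HFD) replicate 3. In WAT, where no member was called, 1 (Lss) passed with normexp, 3 (Lss, Sc5d and Abca1) in the fit of all 20 arrays and 4 (those and Idi1) with array weights, and 0 to 0 with single arrays left out. For the difference between tissues the 1 call became 2 with normexp (Hmgcs1 and Lss) and 0 to 1 with single arrays left out. The difference of Insig1 in WAT was -0.43 within slide 5, and that of Soat2 in WAT was 0.30 with array weights; the cause was not tested. Within a tissue, same-numbered samples had correlations of -0.04 to 0.42 (liver) and -0.21 to 0.09 (WAT), and 1 and 0 of 5 correlated best with their own number. These correlations cannot tell whether samples of equal number were raised or prepared together. With the slide as a block, or with array weights, 6 members were called in liver, Soat1 lower being added. With the replicate block 5 members were called in liver, Sqle in (adjusted p of 0.047 by limma) and Abca1 out (0.089), 0 in WAT and 1 for the difference between tissues. Dim probes such as Abcg8 and Soat2 in WAT set the limit of detection.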
